A study of Zea mays with 48 samples.

Results

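The 57 probes described here differed in endosperm between the maize inbred lines UH301 and UH005, while the 2 reciprocal hybrids of these lines, on average over the loops, differed in the direction of their seed parents by less than 0.4 of that difference or not at all. They were found with a rule on the deposited log ratios of 301/005 endosperm. A probe needed an inbred difference (UH301 minus UH005) of 1 sign in every loop with a value, in at least 3 loops, and a mean of at least 0.8 on the log2 scale. Its mean reciprocal difference (hybrid 301x005 minus hybrid 005x301) divided by its mean inbred difference had to be below 0.4. Of 3585 probes without controls, 2226 had values in 3 or more loops, 815 of these kept 1 sign, 183 of those were large enough, and 57 of the 183 fell below the ratio limit. They are called low-ratio probes below, and the other 126 of the 183, which met every condition except the ratio limit, high-ratio probes. Among the low-ratio probes 31 were higher in UH301 and 26 in UH005, against 109 and 17 of the high-ratio probes. The split of the low-ratio probes was 45 and 18 after array centring and scaling, 16 and 3 with values in all 4 loops, and 18 and 5 without replicate 3.

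The study measured gene expression in reciprocal hybrids and their inbred parents in isolated embryos and isolated endosperm 6 days after pollination, on 2-colour arrays. The groups were the hybrids 301x005, 005x301, 301x250 and 250x301 and the inbred lines UH301, UH005 and UH250, from glasshouse plants, with the selfings and crosses that belong together made on 1 day. Following the usual convention, the line named first in a hybrid is read as the seed parent. In a loop of 4 arrays each of the reciprocal hybrids was hybridised against each of its inbred parents, and each tissue had 4 such loops of cross 301/005 and 2 of cross 301/250. No treatment or transgene was applied, and the labels do not give the number of kernels behind an RNA. Values are log2 differences. Their direction, taken as channel 1 over channel 2, is likely because the array titles name the RNAs in that order, but it was not given in the sources used here. If it were the other way, each inbred, reciprocal and mid-parent difference would change sign, while the ratio of reciprocal to inbred difference would not. A log2 difference of 1 is a 2-fold difference.

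Endosperm is the tissue that feeds the embryo, and it arises from the second fertilisation of the embryo sac. It holds 2 genome copies from the seed parent and 1 from the pollen parent, so reciprocal hybrids carry different doses of the same parental genomes there, whereas the embryo receives 1 copy from each parent. A gene that differs between inbred lines can therefore be expected to differ between reciprocal endosperms by dosage alone, and an imprinted gene, which is read mainly from the copies of 1 parent, can differ more or less than that. A low ratio here means that the reciprocal difference was small beside the inbred difference or ran against it, since the rule sets no lower limit.

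None of the 57 probes has a gene name in the files or in the reference table, which holds RefSeq genes of assembly Zm-B73-REFERENCE-NAM-5.0, so they are given by their probe IDs without a function. No probe sequences were used here. Among the 270 probes whose IDs look like gene names, 71 had 3 or more loops in 301/005 endosperm, 21 of these kept 1 sign, and 0 reached 0.8. The largest inbred difference among them was -0.61 for S_Zmet3, whose ID names a DNA methyltransferase. The 6 control spots with values lay between -0.21 and -0.02.

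Arrays of 301/005 endosperm had values for 2084 to 3423 probes, those of 301/005 embryo for 926 to 3430, those of 301/250 endosperm for 2799 to 3162 and those of 301/250 embryo for 2141 to 3020. Of the 57 low-ratio probes an array held 30 to 57 in 301/005 endosperm, 8 to 56 in 301/005 embryo, 47 to 52 in 301/250 endosperm and 36 to 51 in 301/250 embryo. Across probes the inbred difference of different loops correlated at r = 0.32 to 0.62 in 301/005 endosperm, 0.07 to 0.35 in 301/005 embryo, 0.37 in 301/250 endosperm and 0.05 in 301/250 embryo. Probes share their arrays and are not independent replicates. Probes with the endosperm names MEG1, FIE1, NRP1, MRP1 and BET2 in their IDs had values on 14 to 21 of the 24 endosperm arrays and on 10 to 14 of the 24 embryo arrays, while the probes P_KNT1 and P_KNT1_3 had values on 13 and 8 endosperm arrays and on 13 and 11 embryo arrays. No array set endosperm beside embryo, so the tissues could not be checked by level. In RNA from whole tissue pieces fewer cells of a type and less RNA per cell cannot be told apart.

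The absolute inbred difference of the 57 low-ratio probes was 0.81 to 2.07 with a median of 1.18, against a median of 0.24 over all 2226 probes with 3 or more loops. The probes were chosen by these inbred and reciprocal differences, which are therefore given as a description. The reciprocal difference, turned so that a positive value means that the hybrid with the higher inbred as seed parent was higher, lay between -1.07 and 0.81 with a median of 0.18. The ratio was below 0 for 17 probes, 0 to 0.2 for 18 and 0.2 to 0.4 for 22. Just inside the size limit were S_CC897 at -0.81 and SD1 at 0.82, and just outside it S_CC950 at -0.79 and S_CC1104 at -0.78. Just inside the ratio limit were GC10 at 0.390 and S_CC511 at 0.398, and just outside it JC2 at 0.405 and DH2 at 0.408, so the limit falls within a continuous range of ratios. Values in all 4 loops were present for 19 of the 57 probes and in 3 loops for 38. Of those 38, 30 lacked replicate 4, 6 lacked replicate 1, and replicates 2 and 3 were each missing for 1 probe.

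**Figure D1:**
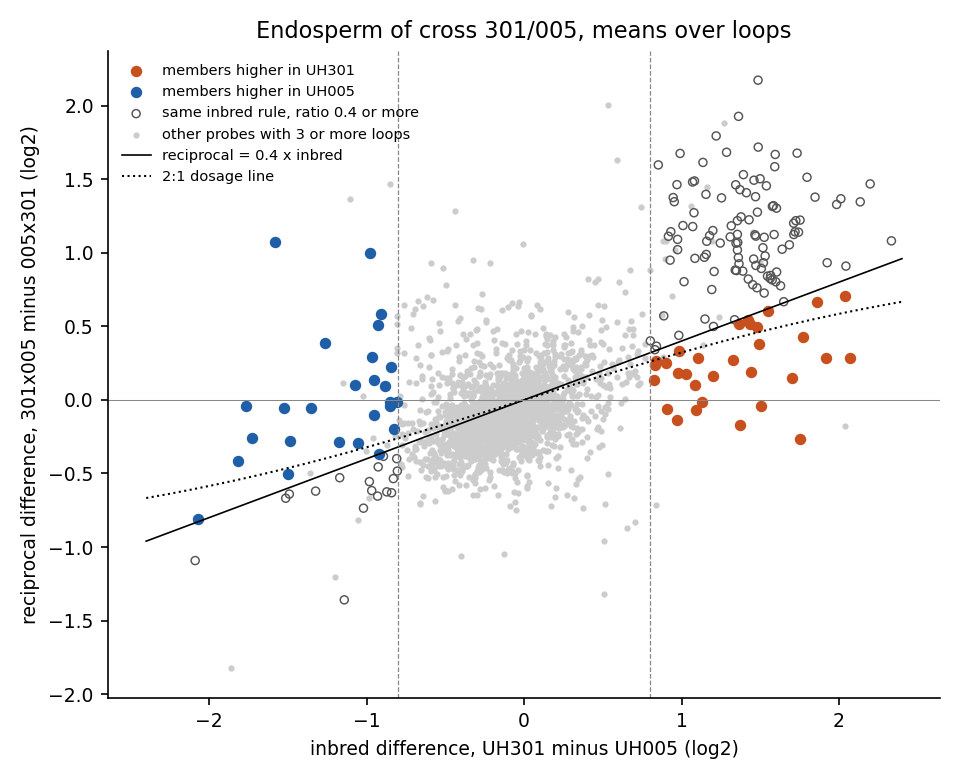
Mean inbred difference (horizontal axis, log2) against mean reciprocal difference (vertical axis, log2) in 301/005 endosperm, 1 point per probe with 3 or more loops. The 31 orange and 26 blue low-ratio probes lie outside the dashed size limits of 0.8 and on the shallow side of the solid line of ratio 0.4, and the open circles are the 126 high-ratio probes. The dotted line marks where a gene would lie if its level followed genome dosage alone.

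Among probes higher in UH301, JF4 had the largest mean. Its inbred difference was 2.84, 0.44, 3.35 and 1.63 in replicates 1 to 4, a mean of 2.07 ± 1.30 (SD, n = 4 loops), and its reciprocal difference 0.22, 0.28, -0.08 and 0.70, a mean of 0.28 ± 0.32. Replicate 2 was far below the others for the inbred difference, yet every loop had the sign of UH301. AH1 measured 1.72, 1.11, 2.10 and 3.22 between the inbreds, a mean of 2.04 ± 0.88 (SD, n = 4). Its reciprocal difference was 0.38, 0.02, 0.06 and 2.37, so that nearly all of its mean of 0.71 came from replicate 4, which was also the loop with its largest inbred difference. PF10 measured 1.44, 0.88, 3.57 and 1.56 between the inbreds, and 1.13, 0.92, -0.61 and 1.23 between the hybrids. In 3 of its loops the hybrids differed in the direction of the seed parent by 0.92 or more, and replicate 3, with the opposite sign, brought its mean ratio down to 0.358.

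NF10 was the most even of the large UH301 probes. Its inbred difference was 1.82, 1.83, 1.33 and 1.84, a mean of 1.70 ± 0.25 (SD, n = 4 loops), and its reciprocal difference -0.22, 0.14, 0.05 and 0.63, a mean of 0.15 ± 0.35, with a ratio of 0.087. KB4 measured 1.81, 0.74, 1.38 and 1.78 between the inbreds and 0.67, 0.19, 0.45 and 0.87 between the hybrids. All 4 of its loops thus ran toward the seed parent, and its ratio of 0.382 lay close to the limit. BB8 measured 0.80, 2.59, 1.76 and 0.34 between the inbreds and 0.53, 0.07, -0.27 and -1.03 between the hybrids, loops of both signs with a mean of -0.17 ± 0.66.

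Only 3 of the probes higher in UH005 had values in all 4 loops. MH10 was the clearest of them, with an inbred difference of -1.35, -1.71, -1.85 and -2.35, a mean of -1.81 ± 0.41 (SD, n = 4 loops). Its reciprocal difference was -0.57, -0.49, -0.11 and -0.51, a mean of -0.42 ± 0.21, so hybrid 005x301 was the higher one in each loop, at a ratio of 0.230. UH7 measured -0.15, -1.08, -1.85 and -0.73 between the inbreds, and -0.44, -0.20, 0.12 and 0.10 between the hybrids. S_CC511 measured -1.45, -0.41, -1.01 and -0.82 between the inbreds, and -0.67, -0.24, -0.40 and -0.17 between the hybrids, in every loop toward the seed parent. GC10, with 3 loops, had the most negative inbred mean of all (-2.07 ± 0.76 SD), from -1.28, -2.80 and -2.14 in replicates 1 to 3.

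Over all 57 probes the reciprocal difference ran toward the seed parent in every loop for 13, away from it in every loop for 3, and in both directions for 41. S_CC183, with the lowest ratio (-1.02), measured -2.11, -0.52 and -0.30 between the inbreds but 1.56, 0.06 and 1.38 between the hybrids in replicates 1 to 3. In that probe the hybrid with the lower inbred as seed parent was the higher one. S_CC232 measured -0.50, -1.96 and -2.29 between the inbreds and -1.27, 2.10 and 2.39 between the hybrids, the widest reciprocal spread of the set (SD 2.04). S_CC27 measured -0.72, -1.69 and -0.32 between the inbreds and 0.16, 1.56 and 0.02 between the hybrids. At the other end NC2 measured 1.88, 0.56 and 2.21 between the inbreds and 0.62, 0.68 and 0.51 between the hybrids, the narrowest reciprocal spread of the set (SD 0.085) and a ratio of 0.388.

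The hybrids of probes higher in UH301 stood nearer to UH301 than to UH005 in the median. The median of 301x005 minus UH301 was -0.25 and that of 005x301 minus UH301 was -0.53, while 301x005 minus UH005 was 0.93 and 005x301 minus UH005 was 0.78. Both hybrids lay above UH005, the lower inbred, for all 31 probes. The rule used these same ratios, so a place above the lower inbred was largely given by the choice. For probes higher in UH005 the hybrids were nearer to UH005. Their median was 0.88 for 301x005 minus UH301 and 0.85 for 005x301 minus UH301, against -0.23 for 301x005 minus UH005 and -0.33 for 005x301 minus UH005. Relative to UH005, the higher inbred of these 26 probes, 301x005 was below for 17 and above for 9. The 005x301 hybrid was below UH005 for 24 and above it for 2. In NF10 the 301x005 hybrid measured 0.12, -0.75, -0.15 and -0.23 relative to UH301 and 1.27, 1.56, 0.98 and 1.78 relative to UH005, and the 005x301 hybrid measured -0.33, -0.40, -0.39 and -0.69 relative to UH301 and 2.16, 0.95, 1.13 and 0.99 relative to UH005. In MH10 the 301x005 hybrid lay 0.70 ± 0.51 above UH301 and at -0.95 ± 0.39 relative to UH005 (SD, n = 4 loops). The 005x301 hybrid of MH10 lay 1.29 ± 0.22 above UH301 and at -0.70 ± 0.78 relative to UH005.

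**Figure D2:**
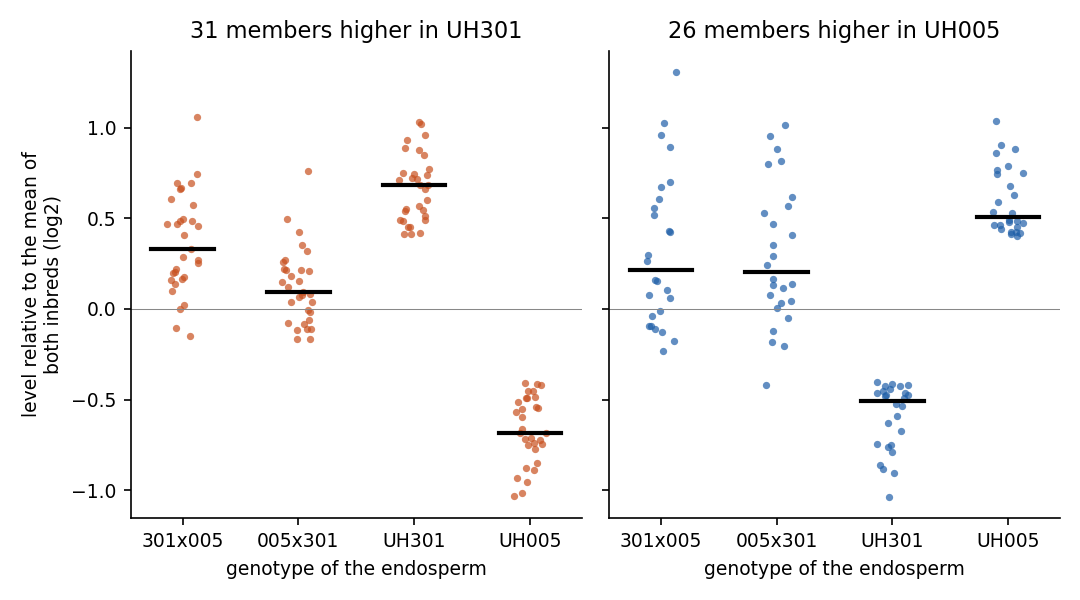
Level of each low-ratio probe in the endosperm of the hybrids 301x005 and 005x301 and of the inbreds UH301 and UH005, relative to the mean of both inbreds (log2, means over loops), with a bar at the median. The inbred columns are mirror images because they are measured from their own mean, and the medians of both hybrids lie above 0 in both panels.

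Each reciprocal difference is the average of a comparison made on the arrays with UH301 and another made on the arrays with UH005, and these often differed among the low-ratio probes. Turned to the seed parent, the median was 0.21 on the UH301 arrays and -0.01 on the UH005 arrays, against 1.20 and 0.97 for the high-ratio probes. The comparisons had opposite signs for 29 of the 57 probes (50.9%), against 2 of the 126 high-ratio probes (1.59%) and 818 of all 2226 (36.7%). The rule split the probes by the mean of both comparisons, and a mean near 0 makes opposite signs likely. The contrast with the high-ratio probes, in medians as in signs, is thus largely given by the choice. JF4 is an example, with 301x005 minus 005x301 at 1.10 on the UH301 arrays and -0.54 on the UH005 arrays. In UH7 the values were -0.21 and -0.00, and in NF10 0.20 and 0.09. Without array error both comparisons would give the same value, and their absolute difference, averaged over loops, had a median of 0.98 for the low-ratio probes, against 0.47 over all 2226 probes. The SD over loops was also larger, with a median of 0.61 for the inbred difference and 0.43 for the reciprocal difference, against 0.32 and 0.28 over all 2226. A rule that asks for a large inbred and a small reciprocal mean uses these same arrays, and the part that array error played in the choice was not tested.

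The rule was therefore applied to 3 loops at a time and the chosen probes were read in the loop left out. Without replicate 1 the rule chose 46 probes, of which 40 had a value in replicate 1. Of these 28 kept their sign there, with a median inbred difference of 0.33 (0.99 in the loops used) and a summed reciprocal over summed inbred difference of 0.807. In the left-out replicate 2 the sign was kept by 25 of 26 probes, the median inbred difference was 0.77 and the ratio 0.447. In the left-out replicate 3 it was kept by 21 of 22 probes, with a median of 0.77 and a ratio of 0.373. In the left-out replicate 4 only 19 of the 49 chosen probes had a value. There it was kept by 19 of 19, with a median of 1.43 and a ratio of 0.433. The inbred difference thus kept its direction in most unseen loops, but the ratio was below the limit of 0.4 in only 1 of the 4. Probes that passed the size rule but not the ratio limit gave 0.988, 0.551, 0.931 and 0.660 in the same left-out replicates, higher than the low-ratio probes in each of the 4. The reciprocal difference in the unseen loop ran toward the seed parent for 32 of 40, 22 of 26, 16 of 22 and 17 of 19 chosen low-ratio probes, against 72 of 78, 72 of 88, 78 of 79 and 68 of 69 high-ratio probes. In most of the chosen low-ratio probes the unseen loop thus ran toward the seed parent. The name "not following the seed parent" therefore holds for the average of the loops used and less so for a loop not used.

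With 2 genome copies from the seed parent and 1 from the pollen parent, each read at its inbred level on a linear scale, the ratio would lie between 0.290 and 0.326 for these probes, depending on the size of the inbred difference. The observed reciprocal difference lay below that line for 46 probes and above it for 11, with a median deviation of -0.23 on the log2 scale. For probes higher in UH301 the median deviation was -0.13 (8 of 31 above the line), and for those higher in UH005 it was -0.32 (3 of 26 above). The median SE of the reciprocal difference in the limma fit was 0.24 (55 probes), as large as the median deviation. The ratio limit itself lies just above the dosage line, so most members had to fall near or below it.

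Probe IDs fall into a plate set, with IDs such as JF4, an S set and a P set, and the low-ratio probes were unevenly spread over them. Of the 31 probes higher in UH301, 29 belonged to the plate set and 2 to the S set. Of the 26 higher in UH005, 16 belonged to the S set, 9 to the plate set and 1 to the P set. Over all 2226 probes the plate set made up 56.2%, the S set 31.3% and the P set 12.2%. The S set as a whole was shifted toward UH005, with a median inbred difference of -0.26 and 575 of 697 probes below 0, against a median of -0.04 in the plate set. After each array was centred within each probe set, an alternative added after the data had been seen, the rule chose 48 probes, of which 42 were among the 57, and 6 in place of 16 were S probes higher in UH005. The number of S probes higher in UH005 thus depends on how the sets are centred, and the cause of the shift was not tested.

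In embryos of the same cross, which the rule did not use, limma called 3 low-ratio probes for the inbred difference. AB9, higher in UH301, measured 0.78, 1.08 and 1.48 in replicates 1 to 3 (limma 1.11 ± 0.19 SE, n = 3 loops, adjusted p = 0.0396). NF10, also higher in UH301, measured 1.10, 1.01 and 0.66 (limma 0.92 ± 0.18 SE, n = 3 loops, adjusted p = 0.0455). MH10, higher in UH005, measured -1.55, -1.53 and -1.45 (limma -1.51 ± 0.22 SE, n = 3 loops, adjusted p = 0.0345). In each of them every loop had the sign it had in endosperm, and for MH10 and NF10 the size in embryo was below that in endosperm in the mean. S_CC907 measured -1.34, -0.62 and -1.09 and missed the threshold (limma -1.02 ± 0.21 SE, n = 3 loops, adjusted p = 0.0653), as did BB8 with 1.60, 2.39 and 1.87. The 3 calls were among 43 low-ratio probes tested, against 0.899% of all 1892 probes tested. At an unadjusted limma p under 0.05 there were 20 of the 43 (46.5%), against 23 of 60 high-ratio probes (38.3%) and 13.1% of all probes tested. The calls of AB9, NF10 and MH10 were each lost without replicate 1 and without replicate 3, when the count was 0. Without replicate 2 the count was also 0, with 2 of the 57 probes testable. The fit shared its estimate of the spread with the endosperm loops that chose the probes. With the spread of the embryo loops alone limma called 0, with an adjusted p of 0.167 for AB9, 0.194 for NF10 and 0.081 for MH10.

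The direction in embryo was mostly that of endosperm. Of the 57 probes 47 had 2 or more embryo loops and the other 10 had 1. The mean embryo difference had the endosperm sign for 43 of the 47 (91.5%), against 1077 of all 1831 probes (58.8%) and 60 of 71 high-ratio probes (84.5%). Without embryo replicate 1 the count of low-ratio probes was 26 of 36 (72.2%). Limma could test 60 of the 126 high-ratio probes for the embryo inbred difference, not the same 60, and called 0. The lowest adjusted p in limma among those tested was 0.059, close to the threshold. The sign was that of endosperm in every loop for 28 of the 47, against 43 of 71 high-ratio probes and 436 of all 1831. It was the opposite in every loop for 2, KB8 and OE8, against 1 of 71 high-ratio probes and 204 of all 1831. Turned to the endosperm sign, the median was 0.57 for the low-ratio probes and 0.62 for the high-ratio probes, against 0.07 for all probes. For 22 of the 47 the embryo difference reached at least 50% of the endosperm one, against 31 of 71 high-ratio probes and 743 of all 1831. Most of all probes had a smaller endosperm difference, so 50% of it was a lower bar for them and the last share is not comparable. Endosperm and embryo RNA came from separate arrays, and the labels do not say whether the tissues of a replicate came from the same kernels. Probes higher in UH301 ranged up to BB8 at 1.96, and among those higher in UH005 S_CC232 measured -3.85, -0.98 and -0.72, a mean that rests largely on replicate 1.

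**Figure D3:**
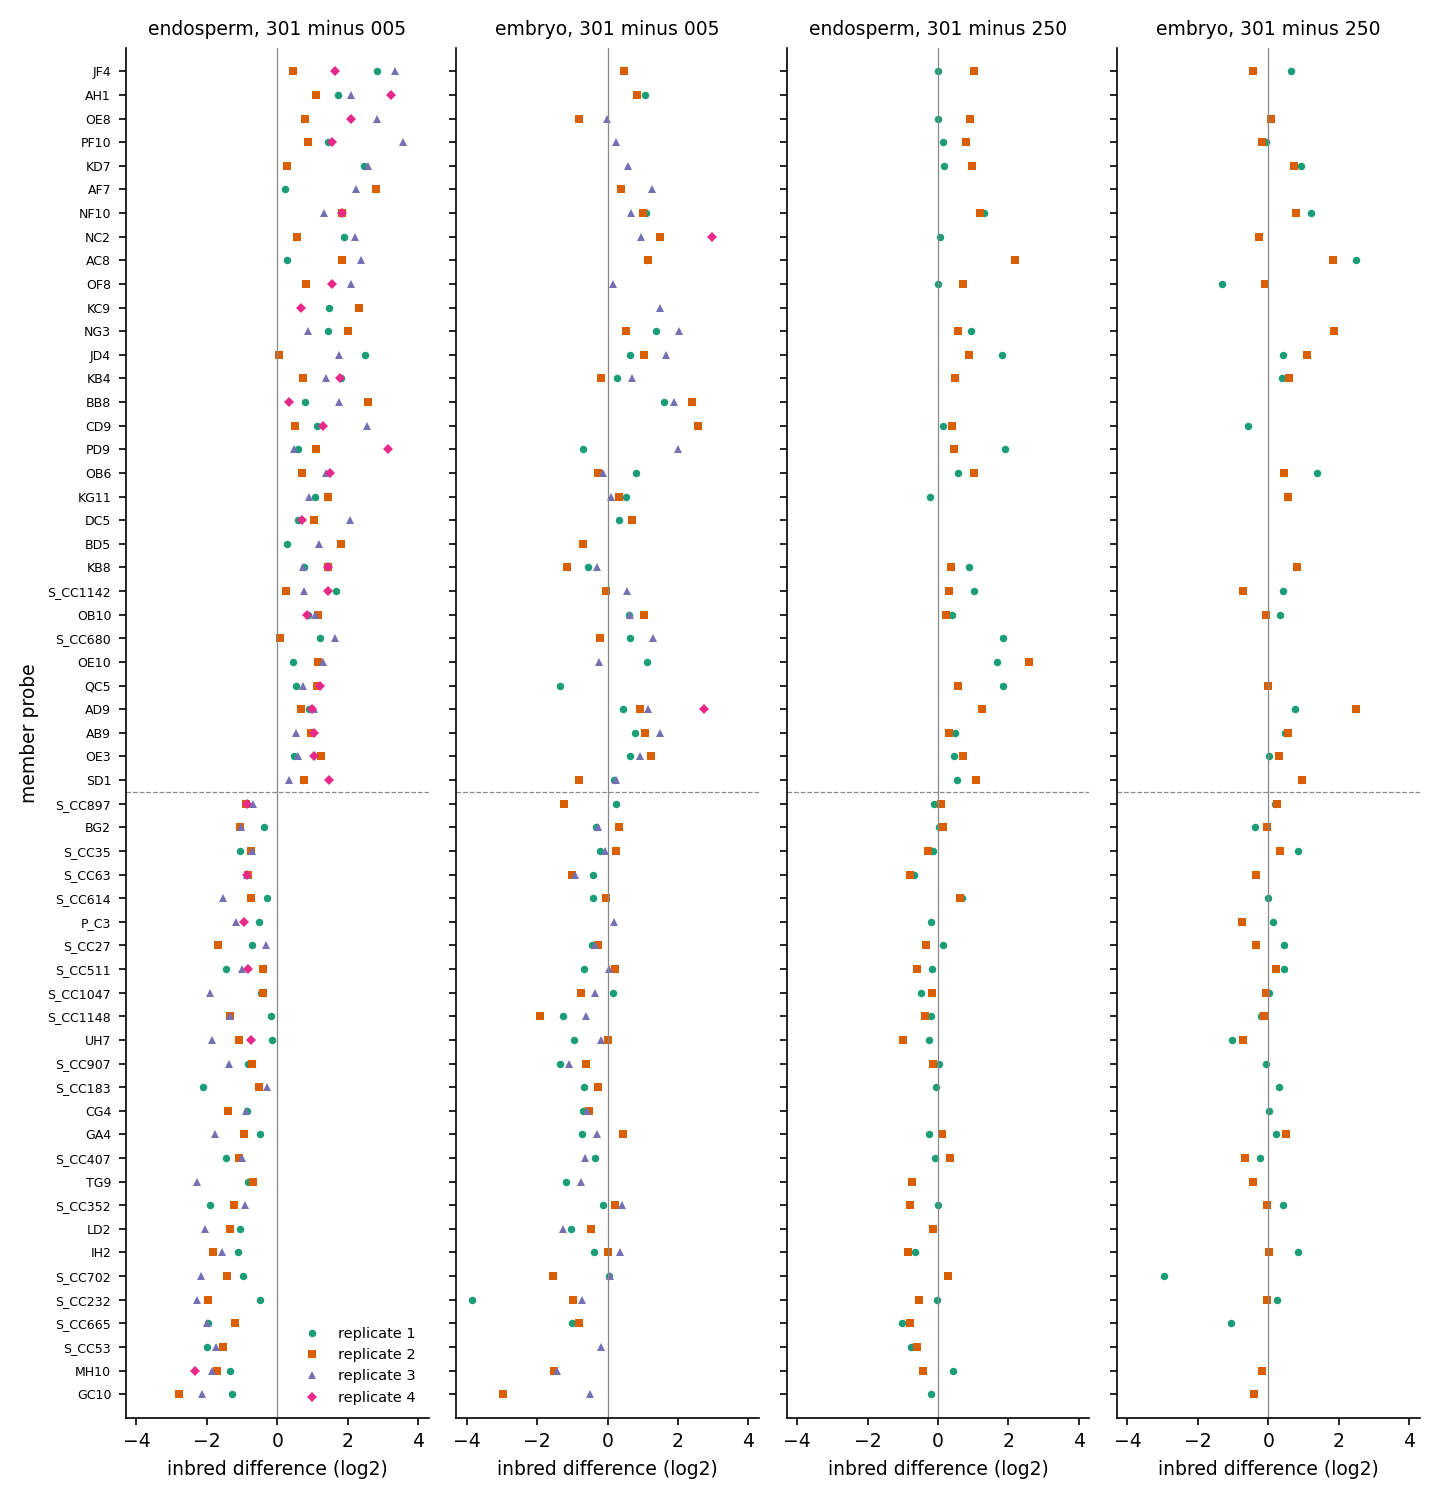
Inbred difference (log2) of all 57 low-ratio probes, 1 line per probe, in each replicate loop of 301/005 endosperm, 301/005 embryo, 301/250 endosperm and 301/250 embryo. Probes above the dashed line are higher in UH301 and those below it higher in UH005. Points of 1 probe keep to a single side of 0 in the first panel by the rule, and 28 of the 47 probes with 2 or more embryo loops keep to the same side in the second. Of the high-ratio probes, which are not shown, 43 of 71 did so.

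In endosperm of cross 301/250 the inbred difference is UH301 minus UH250. It shares the line UH301 with the difference that chose the probes, and whether any UH301 RNA was used in both crosses was not given in the sources used here, so the values are set side by side only. Of the 57 probes 41 could be tested, and limma called 0 of them, as it called 0 of all 2177 probes (0%). At an unadjusted limma p under 0.05 there were 12 (29.3%), against 6.2% of all probes. The 21 tested probes that were higher in UH301 than in UH005 all measured above 0, with a median of 0.63, and so did 100 of 101 high-ratio probes higher in UH301, with a median of 0.49. Those higher in UH005 measured below 0 in 17 of 20 cases, with a median of -0.24, while all probes tested had a median of -0.06. High-ratio probes higher in UH005 measured below 0 in 11 of 15 cases. Over all probes 1233 of 1846 had the sign they had in 301/005 endosperm. NF10 measured 1.32 and 1.19 (limma 1.25 ± 0.22 SE, n = 2 loops, adjusted p = 0.296). OE10, at 0.46, 1.15 and 1.31 in replicates 1 to 3 of 301/005 endosperm, measured 1.69 and 2.58 here (limma 2.14 ± 0.39 SE, n = 2 loops, adjusted p = 0.503). S_CC665 measured -1.04 and -0.78, and S_CC63 -0.68 and -0.78, each of them below 0 in every loop of endosperm of both crosses. MH10, by contrast, measured 0.41 and -0.42, a mean of -0.00, after -1.81 against UH005.

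In embryos of cross 301/250 only 29 of the 57 probes could be tested. Limma called 0 of the 29 and 0 of all 1604 probes (0%), and at an unadjusted limma p under 0.05 there were 8 (27.6%), against 7.42% of all probes. Probes higher in UH301 than in UH005 measured above 0 in 12 of 15 cases with a median of 0.52. Probes higher in UH005 measured below 0 in 6 of 14 cases with a median of 0.07, against 0.07 for all probes tested. High-ratio probes higher in UH301 measured above 0 in 13 of 25 cases, and those higher in UH005 below 0 in 8 of 9. The mean had the sign of 301/005 endosperm for 18 of 29 low-ratio probes (62.1%). It did so for 21 of 34 high-ratio probes (61.8%) and for 727 of all 1352 probes (53.8%). AC8 measured 2.50 and 1.84 (limma 2.17 ± 0.45 SE, n = 2 loops, adjusted p = 0.426), and NF10 1.20 and 0.77 (limma 0.99 ± 0.22 SE, n = 2 loops, adjusted p = 0.426). On the other side UH7 measured -1.04 and -0.73 (limma -0.89 ± 0.37 SE, n = 2 loops, adjusted p = 0.646) and S_CC407 -0.24 and -0.66. NF10 was thus above 0 in all 11 loops in which it had a value, across both tissues and both crosses.

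**Figure D4:**
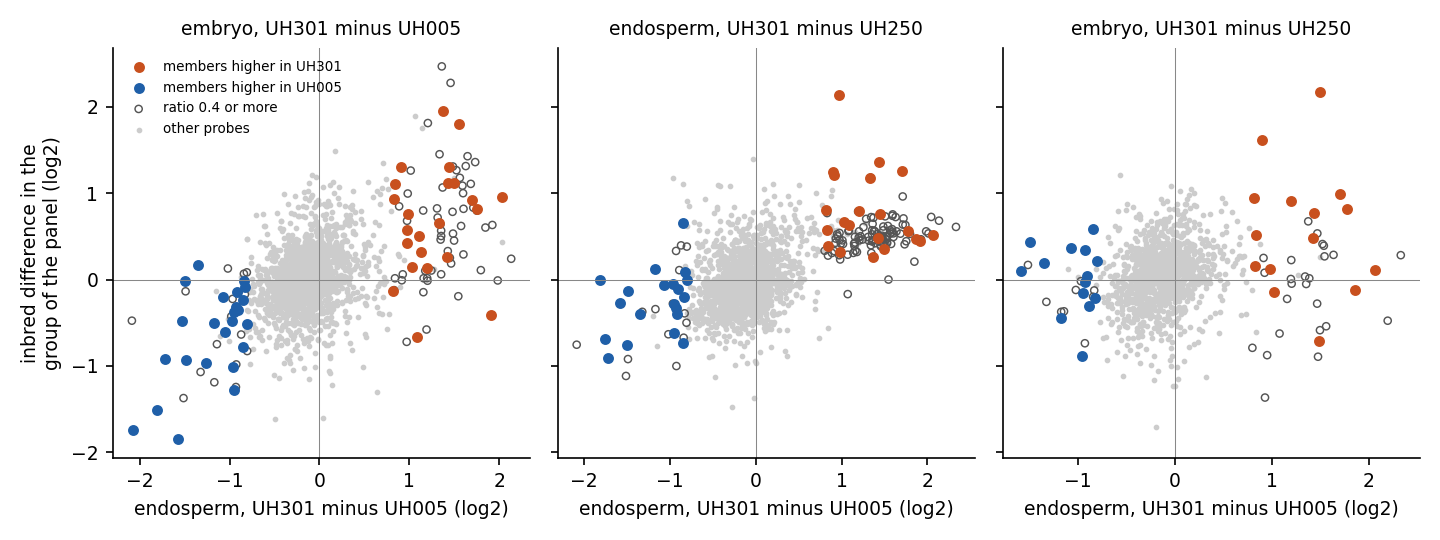
Inbred difference in 301/005 endosperm (horizontal axes, log2) against the inbred difference in 301/005 embryo, 301/250 endosperm and 301/250 embryo (vertical axes, log2), for probes with 2 or more loops in the group of the panel. Low-ratio probes are filled and high-ratio probes open. In 301/250 endosperm all 21 orange points lie above 0, and in 301/250 embryo the blue points lie on both sides of it.

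Whether the inbred difference changed with tissue or cross was tested where neither side had chosen the probes. Between endosperm and embryo of cross 301/250 limma called 0 of 27 low-ratio probes tested (0% of 1483 probes overall), with 2 (7.41%) at an unadjusted p under 0.05, against 3.44% of all probes tested. Between embryos of cross 301/005 and of cross 301/250 it called 0 of 23 (0% of 1226 probes overall), with 5 (21.7%) at an unadjusted p under 0.05, against 6.04% of all probes tested. A miss of the threshold does not show that the differences were equal.

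The reciprocal difference outside 301/005 endosperm gave no call among the low-ratio probes. In 301/005 embryos limma called 0 of 43 tested (0% of 1892 overall), with 6 of the 43 at an unadjusted p under 0.05, against 6.18% of all probes tested. NG3 measured -1.69, -0.89 and -0.86 there (limma -1.15 ± 0.25 SE, n = 3 loops, adjusted p = 0.608), although it was higher in UH301, and S_CC1148 measured -0.57, -0.77 and -0.62 (limma -0.65 ± 0.17 SE, n = 3 loops, adjusted p = 0.723). Above 0 the lowest p-values were those of OE8, with 0.49 and 1.14, and of S_CC1142, with 0.49, 1.90 and 0.12. The mean ran toward the higher inbred as seed parent for 28 of 47 low-ratio probes (59.6%), against 52 of 71 high-ratio probes (73.2%) and 906 of 1831 overall (49.5%).

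In 301/250 endosperm limma called 0 of 41 low-ratio probes for the reciprocal difference (0% of 2177 overall), with 0 at an unadjusted p under 0.05, against 1.33% of all probes tested. Above 0 the lowest p-values were those of OB10 at 0.28 and 0.38 and of OE10 at 1.70 and -0.08. Below 0 they were those of LD2 at -0.93 and -0.70 and of NG3 at -0.54 and 0.06. The median of the absolute difference was 0.17, against 0.10 over all probes tested. In 301/250 embryos it called 0 of 29, against 4 of 1604 overall (0.249%), with 4 of the 29 (13.8%) at an unadjusted p under 0.05, against 17.7% of all probes tested. JF4 measured 1.25 and 0.72 (limma 0.98 ± 0.23 SE, n = 2 loops, adjusted p = 0.0998), and KD7 0.93 and 1.09 (limma 1.01 ± 0.23 SE, n = 2 loops, adjusted p = 0.101). AD9 measured -0.32 and -1.63, and KB4 -0.48 and -0.29. The inbred differences of JF4 and KD7 in that embryo averaged 0.11 ± 0.63 and 0.82 ± 0.53 (limma SE, n = 2 loops). Both means were below the reciprocal means, but whether the 2 kinds of difference differed was not tested.

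The mid-parent difference (mean of both hybrids minus mean of both inbreds) was not part of the rule. In 301/005 endosperm its loop mean was above 0 for 49 of the 57 probes, with a median of 0.21, against 1073 of all 2226 with a median of -0.01. Among probes tested the limma estimate was above 0 for 40 of 49 low-ratio and 85 of 102 high-ratio probes. The sign of the mid-parent difference is no independent result. Earlier work on these data took the position of hybrids between strongly differing inbreds as a second basis for the direction of the ratio. Hybrids with the linear 2 to 1 mixture of the inbreds would lie 0.05 to 0.31 above the mid-parent on the log2 scale, with a median of 0.10. Limma called 0 of 49 tested (0% of 2076 overall), with 10 at an unadjusted p under 0.05 (20.4%), against 7.66% of all probes. NF10 measured 0.80, 0.34, 0.39 and 0.46 in replicates 1 to 4 (limma 0.50 ± 0.10 SE, n = 4 loops, adjusted p = 0.570), and AH1 0.61, 0.35, 0.76 and 1.11 (limma 0.71 ± 0.16 SE, n = 4 loops, adjusted p = 0.570). Below 0 the lowest p-values were those of S_CC27, with 0.28, -1.32 and 0.65, and OE10, with -0.13, 0.09 and -0.21.

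In the other groups limma called no low-ratio probe for the mid-parent difference either. It called 0 of 40 in 301/005 embryos (0% of 1752 overall), 0 of 40 in 301/250 endosperm (0% of 1890) and 0 of 28 in 301/250 embryos (0% of 1460). Without adjustment, 4 low-ratio probes in 301/005 embryos had a p under 0.05 (10.0%, against 7.36% of all probes tested), 2 in 301/250 endosperm (5.0%, against 1.22%) and 2 in 301/250 embryos (7.14%, against 6.44%). In 301/005 embryos MH10 measured 0.69, 0.44 and 0.64, NG3 1.11, 0.32 and 0.78, OE8 -0.58 and -0.70, and KB4 -0.01, -0.26 and -0.16. In 301/250 endosperm OE10 measured 0.92 and 0.55, OF8 0.35 and 0.15, S_CC63 -0.60 and -0.53, and SD1 -0.31 and -0.31. In 301/250 embryos AD9 measured 0.32 and 0.93, OF8 0.47 and 0.14, OB6 -1.22 and 0.05, and SD1 -0.94 and -0.02. OF8 was above 0 and SD1 below 0 in every 301/250 loop of both tissues. The smallest adjusted p in limma over these 3 groups was 0.620.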

How the data were processed

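RNA from isolated embryos and endosperm of maize inbreds and reciprocal hybrids was amplified as cDNA and compared on 48 2-colour arrays, per the labels' protocols. The deposited values are 1 log ratio per probe and array made by the authors, taken here as log2 of channel 1 (Cy3) over channel 2 (Cy5). The log base, direction, background correction and normalization were not given in the sources used here, and amplification before labelling can change ratios. Values were used as deposited. Without intensities the signal behind each ratio is not known, and precision is limited by the number of arrays.

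Of 3592 entries 7 controls were left out. Odd replicates, with the inbred in channel 1, were turned to hybrid over inbred. The 4 arrays of a loop gave 1 inbred, 1 reciprocal and 1 mid-parent difference per probe, so the replicate is already the block, and n counts loops, which the series' design text calls biological replicates. P-values measure the spread between loops. In cross 301/005, arrays of 1 replicate that share an RNA deviated together (r 0.135 to 0.385 in endosperm and 0.106 to 0.384 in embryo). In each tissue 16 of 16 pairs of arrays were over 0.1. Arrays of a replicate also share their dye orientation, and pairs without a common RNA were not compared. The part of the shared RNA in these correlations was therefore not tested. All 12 loops were fitted with limma 3.58.1 in R 4.3.3, with 1 coefficient per cross and tissue and, for the mid-parent, 1 for dye. Each test thus used a spread that includes the 301/005 endosperm loops, which chose the members. Probes with 2 or more loops, both dye orientations and 3 or more residual degrees of freedom were tested. Two-sided p-values were adjusted with the Benjamini-Hochberg method across every probe tested, and 0.05 was the threshold. The fit was tested on simulated data. The inbred and reciprocal differences of 301/005 endosperm chose the members, so no test of them is reported.

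The members, lists and tests were chosen with earlier results of these data known. Of the members 32 are named by rule, namely those with the largest inbred difference in 4 loops, those called, those with the lowest p in each direction and comparison, and those with the lowest and highest ratio. Others are named at the limits or where groups were opposite. Alternatives were array centring and scaling, separate spreads, probes without gaps, single-array fits and leaving out replicates.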

Additional observations from a re-analysis of the deposited data

Results flagged for a closer look

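Among 60 sets of 4 loops (the inbred, reciprocal and mid-parent differences of probes with 4 values), 5 held a loop far from the other 3. A loop counted as far where its gap to the nearest loop, divided by the range of all 4, was above Dixon's critical value, which is set so that chance exceeds it in about 1 in 20 sets. The inbred difference of NF10 in 301/005 endosperm was 1.33 in replicate 3 and 1.82 to 1.84 in the others. The reciprocal difference of AH1 was 2.37 in replicate 4 and 0.02 to 0.38 in the others. That of PF10 was -0.61 in replicate 3 and 0.92 to 1.23 in the others, that of S_CC1142 -0.39 in replicate 2 and 0.30 to 0.41 in the others, and that of MH10 -0.11 in replicate 3 and -0.57 to -0.49 in the others. In AH1 the distant loop raised the ratio, and in PF10 and S_CC1142 it lowered it.

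For 11 probe and group pairs the inbred difference had the opposite sign in every loop to that in every loop of 301/005 endosperm. In 301/005 embryo these were 2 of 47 low-ratio probes with 2 or more loops, against 204 of 1831 among all probes. In 301/250 endosperm they were 2 of 41, against 361 of 1846, and in 301/250 embryo 7 of 29, against 304 of 1352. Such reversals were thus not particular to the low-ratio probes. These differences were not tested, since the endosperm values chose the probes. In 301/005 embryo KB8 averaged -0.66 over 3 loops, against 1.08 in endosperm, and OE8 -0.41 over 2 loops, against 1.91. In 301/250 endosperm BG2 averaged 0.0922, against -0.83 in 301/005 endosperm, and S_CC614 0.66, against -0.85. In 301/250 embryo the averages over 2 loops were 0.37 for GA4, 0.43 for IH2, 0.59 for S_CC35, 0.34 for S_CC511 and 0.22 for S_CC897, all higher in UH005 than in UH301 in 301/005 endosperm. There OF8 averaged -0.71 and PF10 -0.125, both higher in UH301 in 301/005 endosperm.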

How the results depend on the processing

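The number of low-ratio probes, 57, was 54 after array centring, 63 after centring and scaling (44 shared with the 57) and 48 after centring within probe sets. It was 36 with a size limit of 1.0, 35 with a ratio limit of 0.2, 19 with values in all 4 loops, and 23 to 49 when 1 replicate was left out, with 15 shared for the smallest and 44 for the largest. The 3 embryo 301/005 inbred calls became 1 after centring within probe sets, 1 with probes on all 48 arrays (1 low-ratio probe), 0 with the spread of these loops alone and 0 to 3 without 1 replicate, and 13 in single-array fits both with the replicate as a random block and with no replicate block. The 0 calls for the inbred difference became, in 301/250 endosperm, 1 after centring and scaling, 1 with its own spread and 2 in either single-array fit, and in 301/250 embryo 1 with its own spread and 1 in either single-array fit. The 0 reciprocal calls in 301/250 embryo became 1 with probes on all 48 arrays. The 0 mid-parent calls became 2 in either single-array fit in 301/005 endosperm, and 1 with no replicate block in 301/005 embryo and in 301/250 endosperm. Arrays of a loop share RNA (consensus correlation 0.116), so single-array fits count more independent values than there are. The share of low-ratio probes with the endosperm sign ranged over the alternatives from 72.2% to 91.9% in 301/005 embryo. It ranged from 83.0% to 95.7% in 301/250 endosperm and from 53.3% to 69.2% in 301/250 embryo. As deposited, all probes had 58.8%, 66.8% and 53.8% in these 3 groups, so the share in 301/250 embryo was near that of all probes. No sign of a named call turned under these alternatives. The mid-parent with the spread of 2 loops alone could not be fitted in cross 301/250, since no residual degree of freedom remained. Causes of the other changes were not tested. Low values and gaps cannot be weighed by signal, because no intensities were used.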
